A study of Mus musculus with 10 samples.

Results

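Mgst2, Ccdc42, Sec14l4, Lincenc1, Mfap4, Card10, Ces5a and Fam114a1 are 8 genes that were near silent or, for Fam114a1, low in control mouse somatosensory cortex and stood at clear levels in cortex of a conditional knockout (cKO) of Nsd1. They are 8 of the 23283 gene names of the 2.5-month table and were chosen by their large rises in the 2.5-month cKO libraries, so their values in those libraries are a description and carry no test. A separate model, sampled at 3 months, took no part in the choice and is where their change was tested. In that model the 8 genes stayed at or under 2.89 FPKM (fragments counted per kilobase of transcript and scaled to library size) in every library. No gene of the 8 passed the threshold there, nor did any of the 19686 tested genes. Mgst2 was too low there for the filter of the main test. Of the 8, 5 (Mgst2, Ccdc42, Sec14l4, Lincenc1 and Mfap4) were higher in both cKO libraries than in both control libraries. The same held for 16.2% of the 27060 rows with reads.

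NSD1 is a histone methyltransferase that places methyl groups on lysine 36 of histone H3, mainly the dimethyl mark, over broad stretches of chromatin between and within genes. That mark is known to recruit the DNA methyltransferase DNMT3A and to oppose the silencing mark that Polycomb complexes place on lysine 27 of the same histone. The 8 genes are not members of one pathway: they comprise enzymes (Mgst2, Ces5a), a lipid-binding protein (Sec14l4), a matrix protein (Mfap4), a signalling scaffold (Card10), a protein of the sperm tail (Ccdc42), a long noncoding RNA of embryonic stem cells (Lincenc1) and a protein of the developing nervous system (Fam114a1). None is a usual marker of cortical neurons or glia.

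The study sequenced RNA from dissected somatosensory cortex and, by its title, addresses the role of NSD1 and its histone methylation in setting up and keeping neuronal identities. The early model was Nsd1Nex-cKO at 2.5 months (Nex_cKO, n = 3), in which Cre recombinase comes from the Neurod6 (Nex) locus and acts in young postmitotic excitatory neurons. Its controls (Nex_Ctrl, n = 3) were of the same age, replicates 1 and 2 labelled Nsd1fl/+ and replicate 3 labelled Nsd1fl/fl. The late model was Nsd1Camk2a-cKO at 3 months (Camk2a_cKO, n = 2), whose driver is active in forebrain excitatory neurons after birth, and its controls (Camk2a_Ctrl, n = 2) were Nsd1fl/+ at 3 months. Both drivers spare interneurons, glia and vessels, whose RNA is in every library. The labels do not say whether controls carried Cre or whether each replicate was a separate mouse, so the p-values measure the spread between these samples. Age, driver, deposited table and, by sex-linked transcripts, most of the animals' sex differ together between the models and cannot be told apart.

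Nsd1 had 4.31 and 4.99 FPKM in Camk2a_cKO libraries, against 5.61 and 8.87 FPKM in Camk2a_Ctrl libraries (log2 change -0.52, limma adjusted p = 0.719). The 2.5-month table gives Nsd1 only joined with its neighbour Prelid1, at 91.0, 118.1 and 105.6 FPKM in Nex_cKO libraries, against 129.9, 125.1 and 141.4 FPKM in Nex_Ctrl libraries (log2 change -0.34, adjusted p = 0.087). In both tables the cKO values lay below the control values, without passing the threshold. Neurod6, the locus that carries Cre in the early model, was lower in Nex_cKO cortex (18.0 FPKM, against 31.6 FPKM in Nex_Ctrl cortex, log2 change -0.80, adjusted p = 0.00821). Of 14 markers of excitatory cortical neurons all were detected in both tables. One library, Nex_cKO replicate 3, differed from the remaining 5 of the early model: Ddx3y, a gene of the Y chromosome, was at 16.2 FPKM and Xist at 0.0035 FPKM. In those 5, Ddx3y was listed at 0 while Xist stood between 33.6 and 46.5 FPKM. Unnamed rows took 41.55% of the summed FPKM of replicate 3, against 2.33% to 19.4% in the remaining Nex libraries. All 4 libraries of the late model had Ddx3y at 10.98 to 12.4 FPKM and Xist at or under 0.00939 FPKM. Depth was 16901717 to 20074933 recovered reads in the 3-month libraries and is unknown for the 2.5-month libraries.

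**Figure D1:**
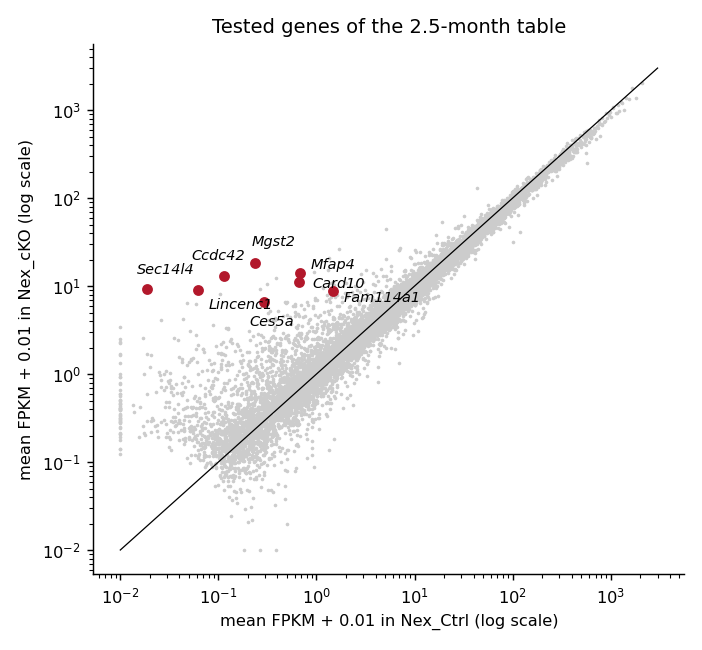
Mean FPKM of each tested gene in Nex_cKO (vertical axis) and Nex_Ctrl (horizontal axis), n = 3 libraries each, on log scales with 0.01 FPKM added. Grey points are the 15251 tested genes, the line marks equal levels, and the 8 named genes (red) lie at 6.54 to 18.4 FPKM in Nex_cKO and 0.00885 to 1.47 FPKM in Nex_Ctrl.

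The 8 genes lie on 6 chromosomes (positions from the 3-month table, GRCm38). Mgst2 (ENSMUSG00000074604) lies at chr3:51660360-51682677 on the plus strand. Chromosome 11 holds 3 of them, all on the plus strand: Sec14l4 (ENSMUSG00000019368) at chr11:4031462-4048024, Mfap4 (ENSMUSG00000042436) at chr11:61485431-61488900 and Ccdc42 (ENSMUSG00000045915) at chr11:68587021-68597966. Lincenc1 (ENSMUSG00000078952, listed there under its newer symbol Lncenc1) is a lincRNA at chr13:97434970-97497007, and Fam114a1 (ENSMUSG00000029185) lies at chr5:64970071-65041886, both on the plus strand. On the minus strand, Card10 (ENSMUSG00000033170) lies at chr15:78775138-78803042 and Ces5a (ENSMUSG00000058019) at chr8:93499064-93535830. The 7 genes other than Lincenc1 are protein coding. They range in size from Mfap4, with a span of 3.47 kb and up to 6 exons, to Fam114a1, with a span of 71.8 kb and up to 14 exons.

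Promoter windows (250 bases before to 50 bases after the start, RefSeq, GRCm38.p6) were matched for 6 of the 8 genes, and for Sec14l4 and Mfap4 none was matched. The 6 windows fell into 2 kinds by their content of CG dinucleotides, the sites at which mammalian DNA is methylated. Below are the windows with the fewest CGs, of Mgst2 (chr3:51660929-51661228, plus strand) and Ccdc42 (chr11:68586787-68587086, plus strand), and those with the most, of Card10 (chr15:78802993-78803292, minus strand) and Fam114a1 (chr5:64969825-64970124, plus strand). They are written 5′ to 3′ on the strand of the gene, with each CG in capitals, so that a line with no capitals has no CG. The RefSeq start of Mgst2 lies inside the gene's span in the 3-month table.
Mgst2: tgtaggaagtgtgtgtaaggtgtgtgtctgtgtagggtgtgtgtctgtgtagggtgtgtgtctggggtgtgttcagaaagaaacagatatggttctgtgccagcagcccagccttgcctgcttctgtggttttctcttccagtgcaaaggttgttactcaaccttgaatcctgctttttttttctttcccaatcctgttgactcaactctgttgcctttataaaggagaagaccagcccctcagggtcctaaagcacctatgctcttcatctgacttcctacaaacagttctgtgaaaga
Ccdc42: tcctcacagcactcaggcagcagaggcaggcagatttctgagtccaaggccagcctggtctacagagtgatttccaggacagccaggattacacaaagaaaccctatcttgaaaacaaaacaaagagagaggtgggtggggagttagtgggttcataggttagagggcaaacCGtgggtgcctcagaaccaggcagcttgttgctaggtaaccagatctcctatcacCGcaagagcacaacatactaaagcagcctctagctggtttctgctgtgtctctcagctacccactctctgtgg
Card10: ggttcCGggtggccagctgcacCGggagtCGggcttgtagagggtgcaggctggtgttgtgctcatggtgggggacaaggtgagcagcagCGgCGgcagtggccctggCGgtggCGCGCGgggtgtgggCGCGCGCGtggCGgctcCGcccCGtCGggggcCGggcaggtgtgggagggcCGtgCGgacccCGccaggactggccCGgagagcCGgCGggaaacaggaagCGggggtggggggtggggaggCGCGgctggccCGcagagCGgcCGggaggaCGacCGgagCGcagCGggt
Fam114a1: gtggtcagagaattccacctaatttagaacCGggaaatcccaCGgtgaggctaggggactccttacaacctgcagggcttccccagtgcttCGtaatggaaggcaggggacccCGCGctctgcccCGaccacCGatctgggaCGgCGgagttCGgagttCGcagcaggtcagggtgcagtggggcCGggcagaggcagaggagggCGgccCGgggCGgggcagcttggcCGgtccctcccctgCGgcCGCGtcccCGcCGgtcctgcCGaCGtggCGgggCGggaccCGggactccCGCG

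The windows of Mgst2, Ccdc42, Lincenc1 and Ces5a held 0, 2, 4 and 5 CGs and had 46.3%, 51.3%, 42.3% and 40.7% of bases as G or C. Those of Card10 and Fam114a1 held 34 and 28 CGs and had 77.0% and 70.0% G or C, the composition of CpG islands. Over all 32851 mouse RefSeq windows of this length the quartiles were 3, 7 and 20 CGs, so that the 2 kinds stood in the lower and the upper part of the range.

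**Figure D2:**
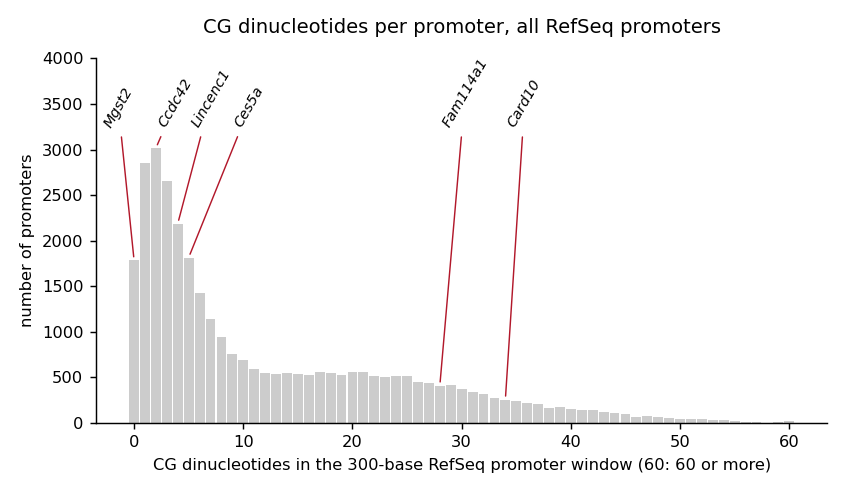
Number of RefSeq promoter windows of 300 bases (vertical axis) by their count of CG dinucleotides (horizontal axis), over 32851 mouse windows, with the 6 matched genes marked. Mgst2, Ccdc42, Lincenc1 and Ces5a lie at 0 to 5 CGs, and Fam114a1 and Card10 at 28 and 34.

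The windows were also searched on both strands for TATAAA (the core of the TATA box), GGGCGG (the core of the GC box), CCAAT (the CCAAT box), the E box CANNTG of basic helix-loop-helix factors and TGACG (one arm of a cyclic AMP response element). These occur in 13.6%, 35.7%, 37.4%, 72.3% and 20.8% of all windows. TATAAA was found in the Mgst2 window, with 2 matches that overlap on opposite strands. GGGCGG was found 3 times in the Fam114a1 window and once in that of Card10. CCAAT was found in the windows of Mgst2, Lincenc1 and Ces5a, the E box in those of Mgst2, Lincenc1, Card10 and Ces5a, and TGACG in that of Ces5a. The Ccdc42 window held none of the 5. No motif was found in all 6 windows.

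In Nex_cKO cortex the 2 enzymes were at levels of ordinary expressed genes. Mgst2, a membrane enzyme that joins glutathione to lipids and can make leukotriene C4, had 18.5, 16.8 and 19.9 FPKM in Nex_cKO libraries, against 0, 0.322 and 0.358 FPKM in Nex_Ctrl libraries. Every cKO library was far above every control library, and its log2(FPKM + 1) change of 3.99 (SE 0.14) was the highest of all 15251 tested genes. With a pseudocount of 0.1 Sec14l4 (6.40) and Ccdc42 (6.17) were ahead of Mgst2 (6.11). In bulk tissue, more cells with the transcript and more transcript per cell cannot be told apart. Ces5a, a carboxylesterase known from kidney and the male reproductive tract, had 6.90, 6.32 and 6.40 FPKM in Nex_cKO libraries, against 0.243, 0.427 and 0.166 FPKM in Nex_Ctrl libraries. The 3 cKO values of Ces5a lay within a factor of 1.09 of each other, the tightest spread of the 8 genes, at a change of 2.56 (SE 0.11).

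Sec14l4, a cytosolic protein of the family that binds and moves lipids such as tocopherol, had 10.6, 6.53 and 10.8 FPKM in Nex_cKO libraries, against 0.0199, 0.00662 and 0 FPKM in Nex_Ctrl libraries. Its control mean of 0.00885 ± 0.0102 FPKM was the lowest of the 8 and its cKO mean was 9.32 ± 2.42 FPKM (SD, n = 3), with a change of 3.32 (SE 0.17). Replicate 2 was the low cKO library, and the highest cKO library had 1.66 times its level, the widest spread of the 8. Mfap4, a secreted glycoprotein that binds elastic fibres and collagen, had 13.7, 15.7 and 13.0 FPKM in Nex_cKO libraries, against 1.14, 0.508 and 0.369 FPKM in Nex_Ctrl libraries (change 3.20, SE 0.17). The groups lay apart, with Nex_Ctrl replicate 1 the highest control. The 3' end of Mfap4 overlaps the 3' end of Mapk7 (chr11:61488812-61494406), which lies on the other strand, and whether the authors counted by strand is not given in the sources used here. Mapk7 had 6.28, 7.64 and 7.04 FPKM in Nex_cKO libraries, against 7.45, 7.27 and 7.60 FPKM in Nex_Ctrl libraries (log2 change -0.08, adjusted p = 0.650), so its values overlapped where those of Mfap4 did not.

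Card10, the scaffold CARMA3 that joins receptor signals to BCL10, MALT1 and NF-κB, had 10.45, 11.1 and 11.7 FPKM in Nex_cKO libraries, against 0.956, 0.669 and 0.351 FPKM in Nex_Ctrl libraries (change 2.88, SE 0.14). The 2.5-month table lists Card10 in 2 rows, of which this is the one with the higher mean. The other row had 3.16, 3.72 and 2.87 FPKM in Nex_cKO libraries, against 0.866, 1.08 and 1.05 FPKM in Nex_Ctrl libraries, and with both rows summed the change was 2.53. In both rows all cKO values lay above all control values. Fam114a1, a protein described in developing neurons, had 8.42, 9.67 and 7.92 FPKM in Nex_cKO libraries, against 1.08, 1.94 and 1.41 FPKM in Nex_Ctrl libraries (change 1.98, SE 0.14). Its control mean of 1.47 ± 0.434 FPKM (SD, n = 3) was above 1 FPKM, so the name near silent fits it least. Its cKO and control libraries did not overlap.

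Ccdc42, a coiled-coil protein needed in the mouse to build the sperm tail, had 13.9, 14.9 and 9.87 FPKM in Nex_cKO libraries, against 0.253, 0.0586 and 0 FPKM in Nex_Ctrl libraries (change 3.64, SE 0.16). Replicate 3 was its lowest cKO library and lay far above the controls. Lincenc1, a noncoding RNA known from naive embryonic stem cells of the mouse, had 8.40, 7.77 and 10.5 FPKM in Nex_cKO libraries, against 0.0223, 0.0786 and 0.0556 FPKM in Nex_Ctrl libraries (change 3.22, SE 0.12). All 3 controls of Lincenc1 were within 0.1 FPKM of 0.

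All 8 genes had every Nex_cKO library above every Nex_Ctrl library, as did 13.0% of the 15251 tested genes. Since this contrast chose the 8, nothing is read from that count. Among the 3037 tested genes with a control mean under 1 FPKM, Mgst2, Ccdc42 and Sec14l4 had the 3 highest changes, followed by Lincenc1 and Mfap4 in places 5 and 6, Card10 in place 11 and Ces5a in place 15. By their percentile among all named genes, the levels of the 8 stood between 66.3 (Ces5a) and 83.1 (Mgst2) in Nex_cKO cortex and between 26.1 (Sec14l4) and 50.1 (Fam114a1) in Nex_Ctrl cortex. In order of their mean in Nex_cKO cortex they ran from Mgst2 (18.4 ± 1.56 FPKM) through Mfap4 (14.1 ± 1.40), Ccdc42 (12.9 ± 2.68), Card10 (11.1 ± 0.603), Sec14l4 (9.32 ± 2.42), Lincenc1 (8.90 ± 1.45) and Fam114a1 (8.67 ± 0.904) to Ces5a (6.54 ± 0.316 FPKM; SD, n = 3 each). The middle of this order is not resolved: the cKO libraries of Mfap4 and Ccdc42 overlapped, as did those of Ccdc42 and Card10, Card10 and Sec14l4, Sec14l4 and Lincenc1, and Lincenc1 and Fam114a1. The lowest Mgst2 library lay above the highest Mfap4 library, and the highest Ces5a library lay below the lowest Fam114a1 library. Sec14l4 in Nex_cKO replicate 2 (6.53 FPKM) lay within the range of Ces5a (6.32 to 6.90 FPKM), so the last place is not fully resolved.

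**Figure D3:**
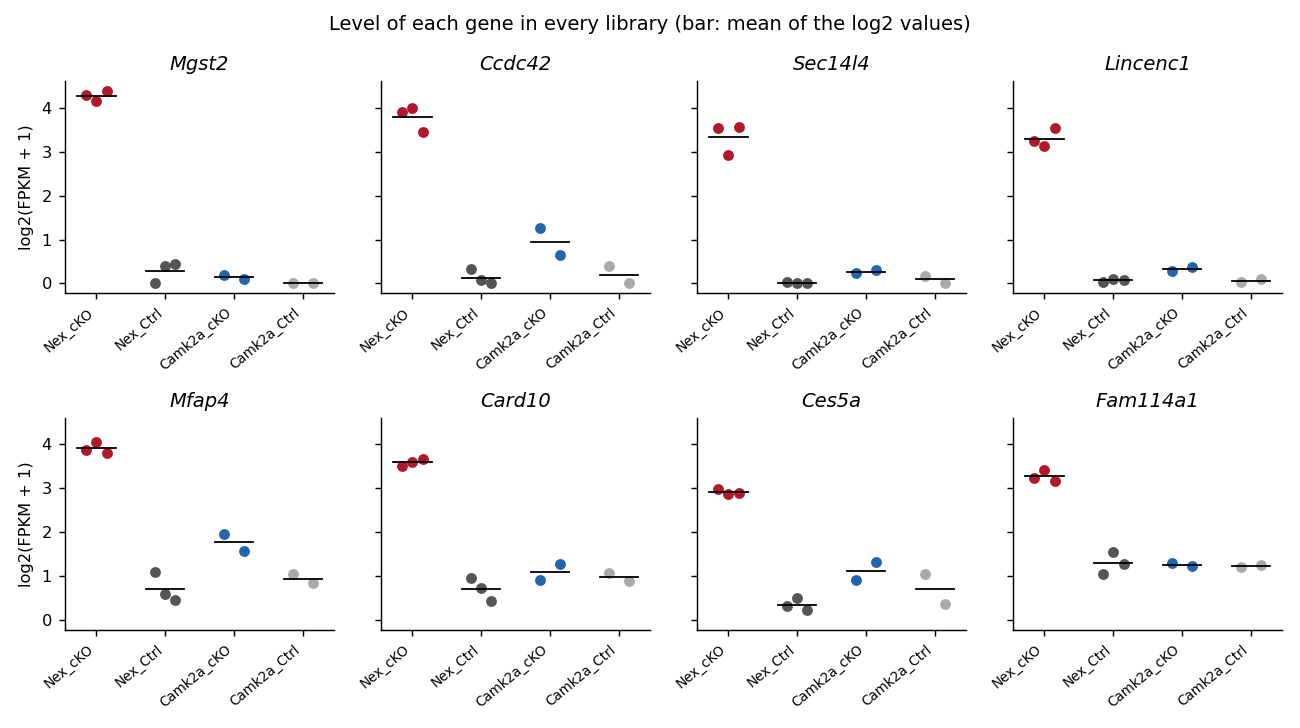
Level of each gene as log2(FPKM + 1) (vertical axis) in every library of the 4 groups (horizontal axis), with a bar at the group mean. The 3 Nex_cKO libraries lie above the 3 Nex_Ctrl libraries in all 8 panels, and the Camk2a_cKO libraries lie clear of the Camk2a_Ctrl libraries for Mgst2, Ccdc42, Sec14l4, Lincenc1 and Mfap4.

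The 8 genes did not rank the cKO libraries alike. Replicate 3 was the highest cKO library for Mgst2, Sec14l4, Lincenc1 and Card10, replicate 2 for Ccdc42, Mfap4 and Fam114a1, and replicate 1 for Ces5a. With the group means taken out, the 28 pairs of genes had correlations over the 6 libraries between -0.988 and 0.81 with a median of 0.0494, and 16 were positive. With replicate 3 left out, which stood apart, the changes of the 8 genes ran from 2.03 (Fam114a1) to 3.94 (Mgst2), with Ccdc42 at 3.81.

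Other genes with a control mean under 1 FPKM shared the pattern, some with larger changes than Card10 and Ces5a. Place 4 among them was held by 4930593A02Rik, a RIKEN transcript (12.4 FPKM in Nex_cKO, against 0.373 FPKM in Nex_Ctrl). Leaving out such Rik and Gm names, the 6 other genes with the highest changes were Lgals7, a galectin of stratified epithelia (10.5 FPKM in Nex_cKO, against 0.304 FPKM in Nex_Ctrl), the intracellular aquaporin Aqp6 (8.09 against 0.0934 FPKM), the muscle regulator sarcolipin, Sln (9.13 against 0.258 FPKM), the actin regulator Eps8l2 (14.5 against 0.937 FPKM), the erythroid translocator Tspo2 (6.24 against 0.0490 FPKM) and smooth muscle actin Actg2 (6.41 against 0.0378 FPKM). The log2 changes of these 6 lay between 2.78 (Actg2) and 3.08 (Lgals7), with limma adjusted p between 2.68e-06 (Aqp6 and Eps8l2) and 1.56e-04 (Actg2). Over the 6 Nex libraries the genes whose profile was most like the mean of the 8 were Crb2 (Pearson r = 0.9999), Eps8l2 (0.9994), Myoz1 (0.9991), Slc22a4 (0.999) and Inadl (0.9987). The points of these correlations fall into the cKO and control groups, so r describes that split.

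The balance of such genes was one-sided. In the Nex model 116 of 9663 genes with all controls under 0.5 FPKM had all cKO libraries at or above 1 FPKM, among them Mgst2, Ccdc42, Sec14l4, Lincenc1 and Ces5a. In the other direction 2 of 9301 genes with all cKO libraries under 0.5 FPKM had all controls at or above 1 FPKM, and 6 did without Nex_cKO replicate 1. In the Camk2a model the counts were 29 of 39159 and 5 of 38766, with 0 of the 8 genes among the 29. Since the 29 are few of the 54427 names there, that 0 does not set the 8 genes apart. These bounds were chosen after the data were seen. In the Nex model the 3037 tested genes with a control mean under 1 FPKM had a median change of 0.07, against -0.03 over all tested genes. They were picked by low control values, and those silent in controls passed the filter only through their cKO values. Such a choice favours a positive median, so nothing is read from it. Nex_cKO libraries had 12487 to 12519 genes at or above 1 FPKM, and Nex_Ctrl libraries 12177 to 12216.

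The 3-month model asks whether the 8 genes also respond when Nsd1 is deleted later. Their changes there ran from 0.03 to 0.83 on the log2(FPKM + 1) scale, on which differences of low genes come out small. The ratios of their reads are given below. By limma, 0 of the 7 that passed the low-value filter were called in either direction. This was so for 0% of the 19686 tested genes in the higher and 0% in the lower direction, while 1368 had an unadjusted p under 0.05. The count of 0 therefore does not set these genes apart. Of the 8 genes, 5 had both cKO libraries above both control libraries and 0 had both below, where 16.2% and 14.9% of the 27060 rows with reads did so. All 8 had a positive log2 change, with a median of 0.22, against 0.00657 over all rows with reads. Over the 7121 tested genes with a control mean under 1 FPKM the median was 0.037. The shares of 16.2% and 14.9% are over rows of all levels and were not computed for low genes alone. With 2 libraries against 2, an exact permutation test cannot go below p = 0.333. The levels of the tables are set side by side here although the tables were normalised separately and used different gene models. Summed markers of meninges and choroid plexus, given below, also differed widely between them.

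Mfap4 was the highest of the 8 in the late model, with 2.89 and 1.98 FPKM in Camk2a_cKO libraries, against 1.06 and 0.789 FPKM in Camk2a_Ctrl libraries. These values rest on 99 and 64 reads in Camk2a_cKO libraries and 35 and 30 reads in Camk2a_Ctrl libraries. The groups did not overlap, and the change on the log2(FPKM + 1) scale was 0.83 (SE 0.18, adjusted p = 0.524 by limma with Benjamini-Hochberg adjustment). Mapk7 on the other strand had 2.98 and 2.77 FPKM in Camk2a_cKO libraries, against 2.55 and 2.22 FPKM in Camk2a_Ctrl libraries, and also did not overlap. Whether reads of one gene were counted for the other was not tested.

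Ccdc42 had 1.40 and 0.561 FPKM in Camk2a_cKO libraries, against 0.314 and 0 FPKM in Camk2a_Ctrl libraries (37 and 14 reads, against 8 and 0 reads). It too was clear of the controls, with a change of 0.76 (SE 0.25, adjusted p = 0.654), although the 2 cKO libraries differed more from each other than replicate 2 did from the higher control. With a pseudocount of 0.1 its change was 2.29, ahead of 1.30 for Mfap4. Lincenc1 had 0.221 and 0.306 FPKM in Camk2a_cKO libraries, against 0.0176 and 0.0766 FPKM in Camk2a_Ctrl libraries (13 and 17 reads, against 1 and 5 reads), with a change of 0.27 (SE 0.10, adjusted p = 0.709). Both cKO libraries were above both controls at a level that remained a small part of that in Nex_cKO cortex.

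Mgst2 was barely present in the late model. It had 0.152 and 0.0803 FPKM in Camk2a_cKO libraries, against 0 and 0.0137 FPKM in Camk2a_Ctrl libraries, which are 10 and 5 reads against 0 and 1 reads. It did not pass the filter on low values, and its unfiltered change was 0.15. Both controls lay under the level of 3 reads, which is 0.041 to 0.0482 FPKM for Mgst2. Sec14l4 had 0.177 and 0.239 FPKM in Camk2a_cKO libraries, against 0.133 and 0.0145 FPKM in Camk2a_Ctrl libraries (11 and 14 reads, against 8 and 1 reads), with a change of 0.17 (SE 0.11, adjusted p = 0.828). Its groups were separate only by the distance between 0.177 and 0.133 FPKM.

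The other 3 genes overlapped between groups. Card10 had 0.896 and 1.43 FPKM in Camk2a_cKO libraries, against 1.10 and 0.848 FPKM in Camk2a_Ctrl libraries (change 0.12, SE 0.17, adjusted p = 0.941). Ces5a had 0.887 and 1.50 FPKM in Camk2a_cKO libraries, against 1.08 and 0.284 FPKM in Camk2a_Ctrl libraries (change 0.41, SE 0.27, adjusted p = 0.835). Fam114a1 had 1.47 and 1.34 FPKM in Camk2a_cKO libraries, against 1.31 and 1.39 FPKM in Camk2a_Ctrl libraries (change 0.03, SE 0.13, adjusted p = 0.991). The changes of Card10 and Fam114a1 took a negative sign when 1 cKO library was left out, and that of Ces5a was 0.06 without Camk2a_Ctrl replicate 2 and 0.76 without Camk2a_Ctrl replicate 1.

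Read counts summed over the 2 libraries of each group give the precision that depth allows. They were scaled to the library sizes that the FPKM values imply, which differ from the totals of recovered reads. So scaled, the ratio of Camk2a_cKO to Camk2a_Ctrl was 16.0 for Mgst2 (95% interval 2.47 to 675), on 15 reads against 1 read. It was 6.81 for Ccdc42 (3.21 to 16.6), 5.34 for Lincenc1 (2.19 to 15.7), 2.97 for Sec14l4 (1.34 to 7.22) and 2.68 for Mfap4 (2.0 to 3.63). For Ces5a it was 1.81 (1.33 to 2.48), for Card10 1.19 (0.971 to 1.47) and for Fam114a1 1.04 (0.821 to 1.32). For Card10 the lower bound, 0.971, lay close to 1, and on which side it falls can depend on the scaling. The lower bound lay above 1 for 6 of the 8 genes, Ces5a among them. The share of all genes for which it would do so was not computed, so nothing is read from that count. These intervals are exact conditional binomial ones, cover counting error only and leave out the spread between libraries, which for Ces5a made the groups overlap.

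**Figure D4:**
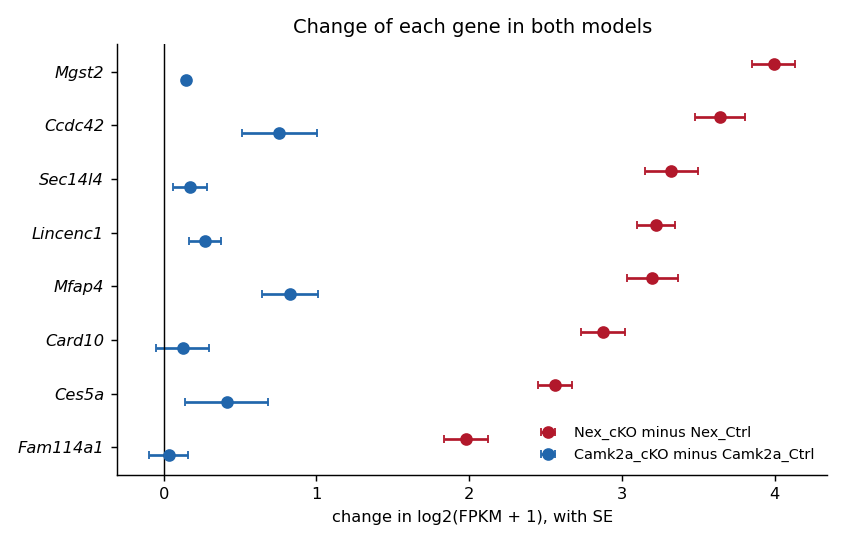
Change in log2(FPKM + 1) of each gene (horizontal axis) in the Nex model (red, n = 3 libraries a group) and the Camk2a model (blue, n = 2 libraries a group), with the standard error of the fit. The Nex changes run from 1.98 (Fam114a1) to 3.99 (Mgst2) and the Camk2a changes from 0.03 (Fam114a1) to 0.83 (Mfap4); the Camk2a point of Mgst2 is unfiltered and has no error.

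Other genes that appeared in the early model were also more often above than below the controls in the late one, where no gene was called. Apart from the 5 of the 8 counted above, 111 genes went above the bound in Nex_cKO cortex, and 100 of them had reads in the 3-month table. Of these 100, 56 (56.0%) had both Camk2a_cKO libraries above both Camk2a_Ctrl libraries and 4 (4.0%) had both below, against 16.2% and 14.9% of all rows with reads. Their median log2 change in the late model was 0.16. The shares of all rows are over rows of every level and were not computed for low genes alone. The difference in shares was not tested. Lgals7 had 1.70 and 1.28 FPKM in Camk2a_cKO libraries, against 0.251 and 0 FPKM in Camk2a_Ctrl libraries, and Aqp6 had 0.696 and 0.663 FPKM in Camk2a_cKO libraries, against 0.216 and 0.0417 FPKM in Camk2a_Ctrl libraries. Neither passed the threshold (adjusted p = 0.456 for Lgals7 and 0.524 for Aqp6).

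Most genes beside the 8 were not called. The share called higher was above that of tested genes at large, but it rests on few genes, all beside Ccdc42, Sec14l4 or Card10. That difference in share was not tested. In the Nex model 767 genes were higher (5.03% of 15251) and 543 lower (3.56%) at an adjusted p under 0.05. With libraries rescaled by the median ratio these counts were 837 and 338, and the lower genes numbered 162, 209 and 170 when Nex_Ctrl replicate 1, 2 or 3 was dropped and 213 when Nex_cKO replicate 1 was. Of the 16 genes that are the nearest tested neighbours of the 8, before and after each, 3 were higher (18.8%) and 1 lower, with a median log2 change of 0.03. Of 45 tested genes within 200 kb of the 8, 6 were higher (13.3%) and 1 lower, with a median of -0.05, against -0.03 over all tested genes.

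The neighbours that rose lay beside Ccdc42, Sec14l4 and Card10. Pik3r6, a regulatory subunit of phosphoinositide 3-kinase gamma that ends 34.3 kb before Ccdc42, had 8.07, 9.76 and 6.07 FPKM in Nex_cKO libraries, against 1.83, 1.21 and 1.73 FPKM in Nex_Ctrl libraries (log2 change 1.78, adjusted p = 0.000362). Its paralogue Pik3r5 on the far side of it rose by 0.44 on the same scale (adjusted p = 0.0180), while Myh10, 93.6 kb beyond Ccdc42, had overlapping values (change 0.13). Sec14l3, the paralogue 16.8 kb after Sec14l4, had 0.963, 0.380 and 0.645 FPKM in Nex_cKO libraries, against 0.117, 0.0986 and 0.0866 FPKM in Nex_Ctrl libraries (change 0.58, adjusted p = 0.0270). Its level was a small part of that of Sec14l4, and reads of close paralogues may be split between them in a way that is uncertain. Around Card10, Mfng, a Fringe glycosyltransferase of the Notch pathway that lies 1.66 kb beyond its 3' end, had 3.75, 3.64 and 2.57 FPKM in Nex_cKO libraries, against 1.34, 1.61 and 1.43 FPKM in Nex_Ctrl libraries (change 0.80, adjusted p = 0.00765). The galectin Lgals1, also within 200 kb, averaged 25.6 FPKM in Nex_cKO and 6.85 FPKM in Nex_Ctrl cortex (change 1.75, adjusted p = 0.00018), and Gm10865 rose by 0.46 (adjusted p = 0.0287). Cdc42ep1, the nearest gene on the other side of Card10, did not pass the threshold (change -0.39, adjusted p = 0.136).

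By contrast Mgst2, Mfap4 and Fam114a1 had no called gene within 200 kb, and Ces5a no tested gene, its nearest being Gnao1 at 274 kb. Maml3, which ends 3.23 kb after Mgst2 on the other strand, had overlapping values (change -0.23). Enc1, an actin-binding protein of neurons that lies 182 kb before Lincenc1, was lower (153 FPKM in Nex_cKO, against 218.4 FPKM in Nex_Ctrl, change -0.51, adjusted p = 0.0129). In the Camk2a model no neighbour was called: Pik3r6 had 2.37 and 1.31 FPKM in Camk2a_cKO libraries, against 1.08 and 1.08 FPKM in Camk2a_Ctrl libraries, Sec14l3 0.161 and 0.192 FPKM in Camk2a_cKO libraries, against 0.0418 and 0.0908 FPKM in Camk2a_Ctrl libraries, and Mfng overlapped. Pik3r5 lay the other way there, at 0.536 and 0.611 FPKM in Camk2a_cKO libraries, against 0.827 and 0.747 FPKM in Camk2a_Ctrl libraries (adjusted p = 0.831).

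**Figure D5:**
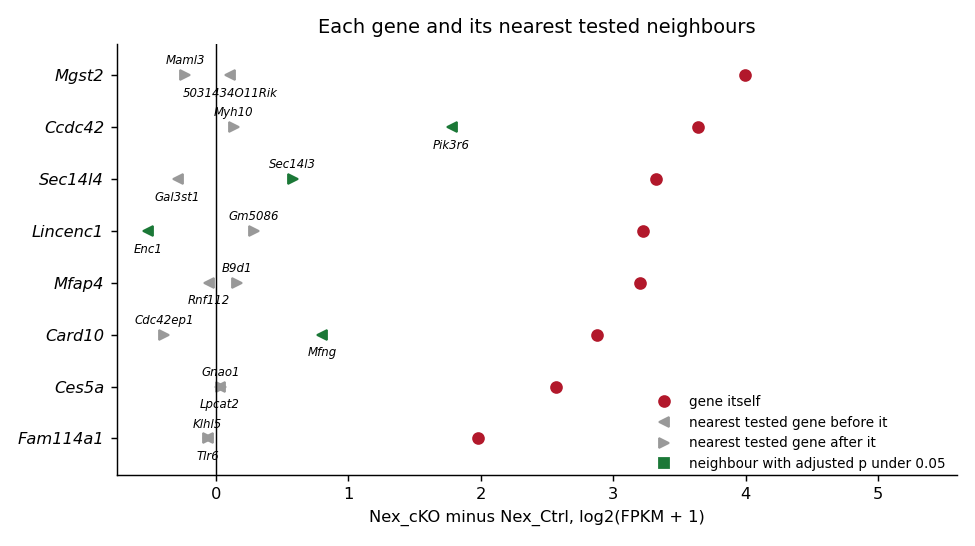
Change in log2(FPKM + 1), Nex_cKO minus Nex_Ctrl (horizontal axis), of each of the 8 genes (circles) and of its nearest tested neighbour on each side (triangles, green where adjusted p is under 0.05), one row a gene. The 16 neighbours have a median change of 0.03, and Pik3r6, Mfng and Sec14l3 are higher and Enc1 lower.

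Summed over the lists of genes related to the 8, 8 of 122 tested genes were higher in Nex_cKO cortex (6.56%) and 3 lower (2.46%), near the 5.03% and 3.56% of all tested genes. Among 25 tested genes of glutathione transfer and leukotriene synthesis, which surround Mgst2, 1 was higher in Nex_cKO cortex and 0 lower, with a median log2 change of -0.04. The one was Alox5ap, which hands arachidonic acid to 5-lipoxygenase (5.56 FPKM in Nex_cKO, against 3.57 FPKM in Nex_Ctrl, change 0.51, adjusted p = 0.0424). Of 10 tested SEC14-like and tocopherol transfer genes 1 was higher, Sec14l3, and 0 lower (median -0.02). Of 16 other carboxylesterase genes none passed the filter and 13 were listed at 0 in all 6 libraries. Their summed level was 0.0218 to 0.344 FPKM in Nex_cKO and 0.129 to 0.190 FPKM in Nex_Ctrl libraries, so Ces5a alone of its family was at a clear level. Fam114a2, the other member of its family, was not changed past the threshold (-0.05).

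Of 20 tested microfibril and elastic fibre genes, 1 was higher and 0 lower (median 0.07). It was Fibcd1, a receptor with a fibrinogen-like domain such as that of Mfap4 (4.19 FPKM in Nex_cKO, against 2.22 FPKM in Nex_Ctrl, change 0.69, adjusted p = 0.00495). Of 23 tested genes of CARMA, BCL10 and MALT1 signalling, 0 were higher and 3 lower (median -0.12). The 3 were protein kinases C alpha and beta, which phosphorylate CARMA scaffolds, and an inhibitor of NF-κB. Prkca had 16.9 FPKM in Nex_cKO, against 27.4 FPKM in Nex_Ctrl (change -0.66, adjusted p = 0.000434), Prkcb 108 FPKM against 141 FPKM (-0.38, 0.0181) and Tnfaip3 1.11 FPKM against 1.89 FPKM (-0.46, 0.0261).

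Of 19 tested genes of the spermatid tail and manchette, 3 were higher and 0 lower (median 0.14). These were Spag6l, a protein of the axoneme of cilia and sperm (7.57 FPKM in Nex_cKO, against 2.40 FPKM in Nex_Ctrl, change 1.34, adjusted p = 0.000123), Ccdc113 (4.73 against 1.83 FPKM, 1.02, 0.00732) and the joined locus Adprhl2,Tekt2 (22.4 against 16.5 FPKM, 0.41, 0.0156). Akap4, Prm1, Prm2, Tnp1 and Tnp2, markers of late spermatids, were listed at 0 in all 6 Nex libraries. Of 13 tested germline genes that are silenced by DNA methylation in other tissues, 0 were higher and 0 lower (median -0.01), and 8 more were listed at 0. Of 11 tested genes of naive embryonic stem cells, 2 were higher and 0 lower (median -0.03). Dppa2 had 0.310, 0.381 and 0.642 FPKM in Nex_cKO libraries and was listed at 0 in the Nex_Ctrl libraries (change 0.52, adjusted p = 0.0155), and Lin28b, an RNA-binding protein, averaged 2.38 FPKM in Nex_cKO and 1.20 FPKM in Nex_Ctrl cortex (0.61, 0.0358). Pou5f1, Zfp42, Prdm14 and 7 other genes of that list were at 0 in every Nex library. In the Camk2a model 0 genes of these lists were called.

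Markers of the cell types that the dissected cortex could hold were read beside the 8 genes. In the Nex model 1 of 14 fibroblast and meningeal markers was higher (Foxc1) and 0 lower, with a summed level of 278 to 323.4 FPKM in Nex_cKO and 327.6 to 334.3 FPKM in Nex_Ctrl libraries. Of 14 endothelial and mural markers, 0 were higher and 1 lower (Cldn5), with sums of 119.2 to 134.5 FPKM in Nex_cKO and 140.5 to 167.3 FPKM in Nex_Ctrl libraries. Sums for both of these were thus lower in each cKO library than in each control library. The same held for the oligodendrocyte sums (1157 to 1389 FPKM in Nex_cKO, against 1481 to 1601 FPKM in Nex_Ctrl), the excitatory sums (1361 to 1483 against 1530.0 to 1632 FPKM) and the blood cell sums (55.8 to 99.4 against 130.4 to 279.2 FPKM). Astrocyte sums were higher in each cKO library (979.9 to 1030.0 FPKM in Nex_cKO, against 902.4 to 977.4 FPKM in Nex_Ctrl). Of 10 tested ependymal and choroid plexus markers 2 were higher (Kl and Mia) and 0 lower, with overlapping sums of 82.0 to 91.9 FPKM in Nex_cKO and 82.0 to 86.8 FPKM in Nex_Ctrl libraries and Tmem212 at 0. Of 13 microglial and macrophage markers 2 were higher (Trem2 and Cd163), with sums of 224 to 250.2 FPKM in Nex_cKO and 185 to 226.6 FPKM in Nex_Ctrl libraries. Of 7 tested blood cell markers 0 were higher and 2 lower, both haemoglobin loci. Of 10 astrocyte markers 1 was higher (Gfap), of 10 oligodendrocyte markers 0 were higher or lower, and of 13 GABAergic markers 1 was higher (Gad2). Of 14 excitatory markers 1 was higher (Neurod2) and 5 lower (Fezf2, Foxp2, Neurod6, Rorb and Tbr1). In the Camk2a model no marker was called. Fibroblast and meningeal sums there were 24.9 to 29.0 FPKM in Camk2a_cKO and 23.5 to 29.8 FPKM in Camk2a_Ctrl libraries. Ependymal and choroid plexus sums were 4.85 to 5.15 FPKM in Camk2a_cKO and 5.08 to 6.05 FPKM in Camk2a_Ctrl libraries. Both lay far below the sums of the Nex libraries, and the sums of the other cell types differed less between the models. The part of these cell types in the levels of the 8 genes was not tested.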

How the data were processed

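RNA was measured by sequencing in 10 libraries. The authors deposited FPKM values in 2 tables, one a model; per the submitters' processing notes cutadapt, STAR, Cufflinks 2.2.1 and DESeq2 were used, on mm10 or GRCm38. The 2.5-month table has 29610 rows (4463 unnamed, left out) and the 3-month one has 54532 rows. Of rows that share a name, the one with the highest mean was used. The 8 genes were matched by name, and Lincenc1 through its RefSeq synonym in the 3-month table. There, FPKM times the deposited gene length came in whole steps for 100% of values (tolerance 0.1), and each step was taken as 1 read.

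Each table was fitted with limma 3.58.1 in R 4.3.3 (eBayes with intensity trend) on log2(FPKM + 1), over genes with FPKM of at least 0.1 in as many libraries as the smaller group. P-values are two-sided, with Benjamini-Hochberg adjustment across the whole table and a threshold of 0.05; "higher", "lower" and "rose" of a gene other than the 8 mean past it. The pseudocount of 1 makes changes of low genes smaller than their FPKM ratios. Changes are cKO minus control.

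The 8 genes and all lists of related genes and markers were chosen with earlier results of these data known. Named besides them were Nsd1 and Neurod6, the nearest tested neighbours, the 6 other near-silent genes of largest change (Gm and Rik names left out), the 5 most alike profiles and up to 3 called genes a list; Mapk7, 4930593A02Rik, Pik3r5, Lgals1 and Gm10865 were chosen after their values were seen. Replicate numbers did not pair the samples (same-numbered libraries correlated at -0.0888 to 0.0313 after group means were removed). Alternatives were leaving out each library, median ratio rescaling, summing rows of one name, a pseudocount of 0.1, a filter of FPKM 1 or none, and a replicate block.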

Additional observations from a re-analysis of the deposited data

Results flagged for a closer look

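Actg2, one of the other near-silent genes with large changes, had 3.70 to 7.81 FPKM in Nex_cKO libraries, against 0 to 0.113 FPKM in Nex_Ctrl libraries. In the late model it had 0.0722 and 0 FPKM in Camk2a_cKO libraries, against 0.0747 and 0.130 FPKM in Camk2a_Ctrl libraries (unfiltered change -0.0898 on the log2(FPKM + 1) scale). The opposite signs flagged it. The late values are 2 and 0 reads in Camk2a_cKO libraries, against 2 and 4 reads in Camk2a_Ctrl libraries, so that Camk2a_cKO replicate 1 and Camk2a_Ctrl replicate 1 hold the same number of reads and differ by scaling alone. No direction is read from them, and the difference between the models was not tested.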

How the results depend on the processing

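Under all 10 alternatives for the 3-month table, 0 genes were called, the 8 included, and the adjusted p of the 8 lay between 0.37 (Ccdc42 and Mfap4) and 0.996 (Fam114a1). With no filter all 8 were tested, with a filter of FPKM 1 only 4. Leaving out each library gave changes of -0.0072 to 0.0728 for Fam114a1 (negative without Camk2a_cKO replicate 1) and -0.0561 to 0.3013 for Card10 (negative without Camk2a_cKO replicate 2). The change of Ces5a (0.41) ran from 0.06 without Camk2a_Ctrl replicate 2 to 0.76 without Camk2a_Ctrl replicate 1, that of Ccdc42 (0.76) was 0.45 without Camk2a_cKO replicate 1, and that of Sec14l4 (0.17) was 0.09 without Camk2a_Ctrl replicate 2. A lone library left in a group is assumed to vary like the others. In the Nex model the changes of the 8 kept their sign under every alternative and with a pseudocount of 0.1 were 2.51 (Fam114a1) to 6.40 (Sec14l4). Genes called lower there numbered 543, against 338 with median ratio rescaling, 297 with the replicate block and 162 to 644 with each library left out (162, 209 and 170 when a control was dropped, replicates 1 to 3 in order, and 213 when Nex_cKO replicate 1 was), and all called genes 1310, against 681 to 1381 (lowest without Nex_Ctrl replicate 1); the causes were not tested. Chosen after seeing the data, leaving out each library gave 126 to 134 appearing and 2 to 6 disappearing genes. In the late model it gave 6 to 7 of the 8 genes and 63 to 77 of the 100 others above, a condition easier to meet with fewer libraries. The share of all rows that meet this condition with a library left out was not computed, so nothing is read from the late counts. Depth limits the 3-month values of Mgst2, Sec14l4 and Lincenc1, with at most 17 reads a library.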
